A study of Mus musculus with 24 samples.

Results

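Integrin and laminin subunit genes were taken from expression tables of mouse embryonic stem cells (mESC) and of neural progenitor cells (NPC). A gene counted as a member when its symbol was that of an integrin alpha chain (Itga with a number or v), an integrin beta chain (Itgb with a single digit) or a laminin alpha, beta or gamma chain (Lama, Lamb or Lamc with a number). The rule found 32 genes among the 17953 genes of the tables. All 32 had a row in mESC and 31 in NPC, where Itgb6 had none. In mESC 29 members, and in NPC 26, reached the level needed for a test, which was 1 CPM in at least 2 libraries. Itgb6, Lama2 and Lamc3 were under it in mESC, and 5 members in NPC, Itga11, Itgb2 and Itgb7 among them.

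Integrins are cell surface receptors made of an alpha and a beta chain, and they tie the extracellular matrix to the actin skeleton inside the cell. Laminins are large secreted proteins made of an alpha, a beta and a gamma chain, and they are the scaffold of basement membranes. The alpha chain largely sets which receptor binds a laminin, and integrins with the Itgb1 chain joined to Itga3, Itga6 or Itga7 are its main integrin receptors. Neural stem cells attach to laminin through Itga6 and Itgb1, and the early embryo lays down its first basement membrane from Lama1, Lamb1 and Lamc1.

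The libraries came from 6 Htt genotypes, with 2 libraries for each genotype in each cell type. Htt encodes huntingtin, the protein whose CAG repeat is expanded in Huntington's disease. The genotypes were wild type (WT), a knockout of Htt (KO), and heterozygous knock-in lines with 20, 50, 92 or 111 CAG repeats in the targeted allele (Q20, Q50, Q92 and Q111). The growth protocol gives the Q92 allele as 89 repeats. The mESC grew with leukemia inhibitory factor on gelatin with a feeder layer of irradiated mouse fibroblasts. The NPC were differentiated from mESC in N2B27 medium and kept with FGF and EGF on dishes coated with laminin, so that every NPC library came from cells supplied with the ligand of these receptors. The series text calls the 2 libraries biological samples, and the labels do not say whether they were separate clones or separate differentiations. Each genotype is a line or set of lines of its own, so genotype and line cannot be told apart.

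The mESC libraries held between 58546211 and 81502284 recovered reads, and those of NPC between 48525333 and 118038952. Pluripotency markers were high in mESC, where Pou5f1 ran from 279.7 to 880 CPM. In NPC the neural progenitor markers summed to between 4007 and 9383 CPM, with both Q20 libraries lowest. The NPC of the Q20 line also held pluripotency transcripts: 5 of the 9 listed genes were in the NPC table, 1 of them under 1 CPM throughout, and they summed to 108 and 106 CPM in Q20 against 4.72 to 26.5 CPM in the other 10 libraries. Pou5f1 was at 90.1 and 87.4 CPM in Q20 NPC and under 1 CPM in the other 10 NPC libraries. Nanog was at 13.0 and 13.7 CPM in Q20 NPC, whereas Esrrb and Klf4 were higher in other lines. The blood markers Ptprc and Csf1r were under 1 CPM in every library of both cell types. In bulk samples such as these, fewer cells of a type and less RNA per cell cannot be told apart. Htt itself was at 137 and 177 CPM in WT NPC and at 100 and 94.9 CPM in KO NPC. In mESC it was at 124 and 113 CPM in WT, and the libraries labelled KO were at 139 and 68.5 CPM, so that the level of Htt did not separate the labelled groups in mESC. Where the deletion lies in Htt is not given in the sources used here. The Htt difference between KO and WT NPC was -0.67 on the log2(CPM + 1) scale (SE 0.14, limma adjusted p = 0.0673). Over the other pairs and the slope, Htt differed by -0.12 to 0.18 in NPC and by -0.53 to 0.17 in mESC, and none of these passed the limma test, though the F test over genotypes did in NPC (adjusted p = 0.0111).

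Levels of different genes were compared as CPM per kilobase of exon, as means over the 12 libraries of a cell type. Itgb1, the beta chain shared by most matrix receptors, led in both cell types, with 125 CPM per kb in mESC and 298 CPM per kb in NPC. The alpha chain with the highest level was Itga6, a laminin receptor, in mESC (27.4 CPM per kb), and Itgav, which binds vitronectin and activates latent TGF-beta, in NPC (25.6 CPM per kb). Among laminins, Lamc1 led the gamma chains (47.3 CPM per kb in mESC and 31.1 CPM per kb in NPC) and Lamb1 the beta chains (26.5 and 21.2 CPM per kb). Lamb2 was at 5.58 CPM per kb in mESC and at 21.1 CPM per kb in NPC, where it nearly equalled Lamb1. Lama1 had the highest level of the alpha chains in mESC at 16.4 CPM per kb, with Lama5 next at 14.4 CPM per kb. In NPC Lama5 led with 16.4 CPM per kb, and Lama1 was at 1.44 CPM per kb.

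The tables were scaled separately, so mESC and NPC levels were set side by side without a test. Of the 30 members with a library of at least 1 CPM, 5 were higher in every NPC library than in any mESC library, namely Itga4, Itga7, Itgav, Itgb8 and Lamb2. The same held for 14.9% of all genes of both tables that reached 1 CPM in a library. In the other direction, 7 of 30 members were higher in every mESC library, Itga3, Itgb3, Itgb4, Itgb7 and Lama1 among them, against 13.3% of all genes. The other 18 members overlapped. Itgb8, which pairs with Itgav, was at 80.9 to 352 CPM in NPC and at 0.0885 to 5.64 CPM in mESC. Itgb7, a chain best known from lymphocytes, was at 16.3 to 80.4 CPM in mESC and at 0.176 to 1.13 CPM in NPC. Itga3, a laminin receptor chain of epithelia, was at 32.8 to 158 CPM in mESC and at 0.198 to 8.80 CPM in NPC. Itgb4, the partner of Itga6 in hemidesmosomes, and Lama3, the alpha chain of the epithelial laminin that anchors them, were both on the mESC side.

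**Figure D1:**
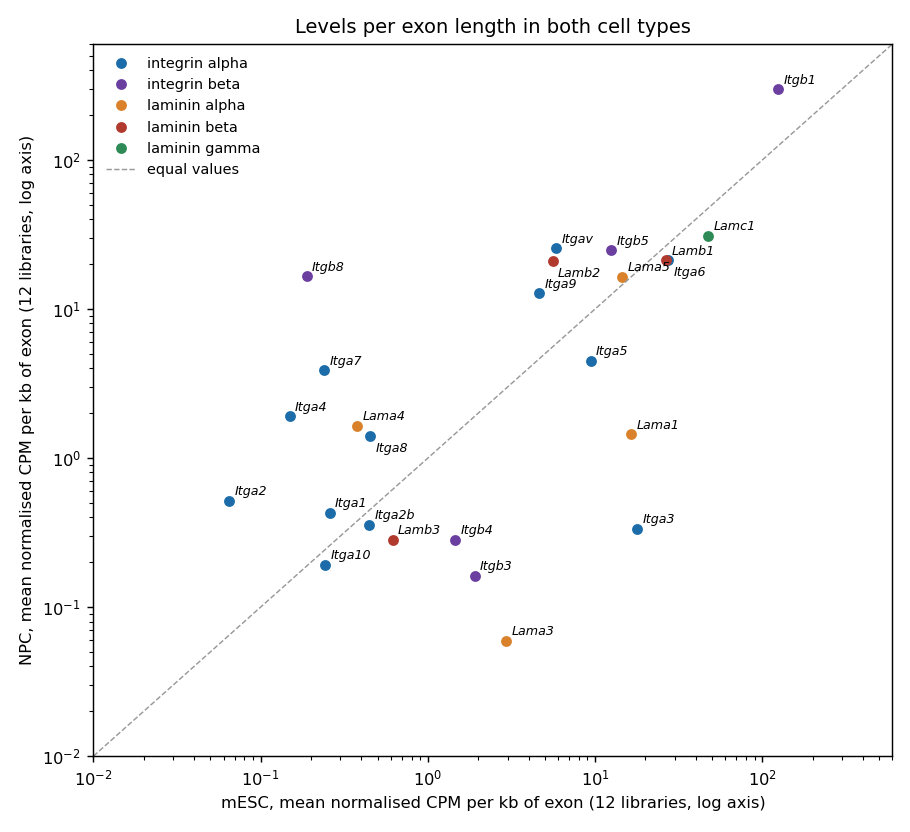
Mean level of the 25 genes tested in both cell types, in mESC (x axis) and in NPC (y axis), in normalised CPM per kilobase of exon over 12 libraries each, on log axes; the dashed line marks equal values in the separately scaled tables. Itgb1 lies at the top in both cell types, Itgb8, Itga7 and Itga4 lie far above the line, and Itga3 and Lama3 far below it.

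In NPC, 20 of the 26 tested members differed among the 6 genotypes (limma F test over all 13206 tested genes, adjusted p under 0.05), where 38% of all tested genes did. The smallest adjusted p belonged to Itga3 (3.6e-05) and the next to Lama1 (0.000279). The 6 that did not pass were Lamb2, Itga5, Lamb3, Itga1, Itgb8 and Itga10, with adjusted p from 0.0516 to 0.394. In Itgb8 the spread lay within the groups: its WT libraries were at 352 and 108 CPM and its KO libraries at 154 and 80.9 CPM. The members that varied did so in different lines, so the results are given by the line in which each gene was highest or lowest.

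**Figure D2:**
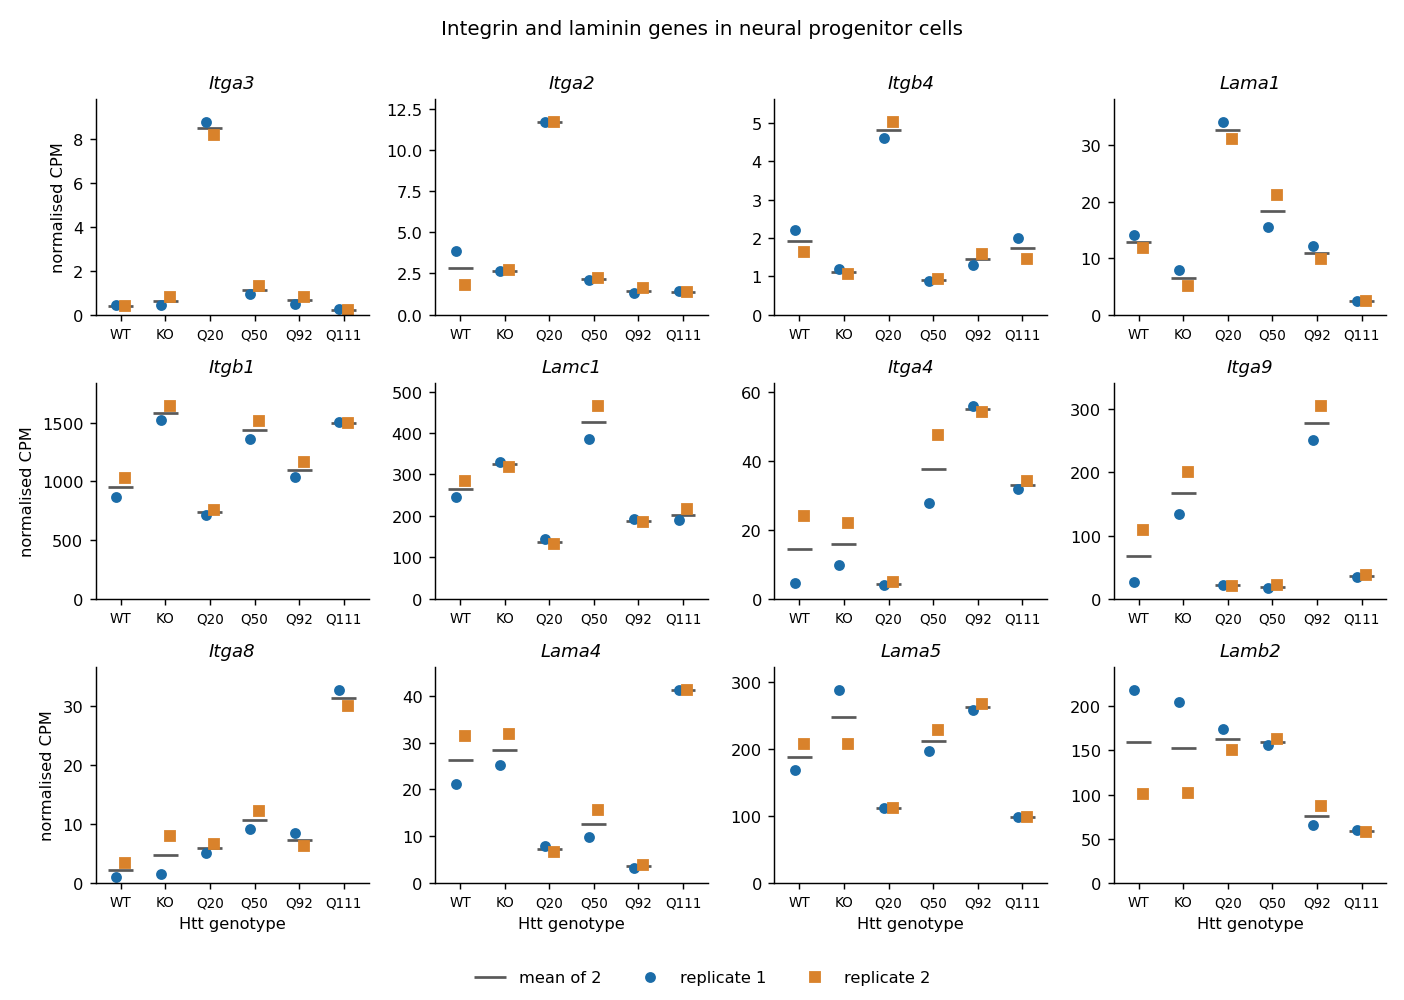
Normalised CPM (y axis, from 0) of 12 genes in the 12 NPC libraries by Htt genotype (x axis); circles and squares are replicate 1 and 2 and the bar is their mean. Itga3, Itga2, Itgb4 and Lama1 were highest in Q20, Itga9 and Itga4 in Q92, Itga8 and Lama4 in Q111, and Itgb1 and Lamc1 were lowest in Q20.

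In NPC both Q20 libraries lay above the other 10 libraries for Itga2, Itga2b, Itga3, Itgb3, Itgb4 and Lama1, 6 of 26 members against 11.2% of all tested genes. Itga3 was at 8.80 and 8.19 CPM in Q20, at 0.420 and 0.393 CPM in WT, at 0.424 and 0.785 CPM in KO, at 0.948 and 1.29 CPM in Q50, at 0.495 and 0.797 CPM in Q92 and at 0.230 and 0.198 CPM in Q111. Its highest genotype mean was 39.6 times its lowest. Itga2, the collagen receptor chain, was at 11.7 CPM in both Q20 libraries and between 1.30 and 3.84 CPM in the other 10. The Q20 libraries of these 2 genes thus stood far from all others, and their replicates lay close together.

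Against WT, Q20 NPC had 9 of 26 members called, 6 higher and 3 lower, where 14.5% of all tested genes were called (9.97% higher and 4.57% lower). The median member differed by 0.12, and the median of all tested genes by -0.017. Itga3 rose by 2.75 on the log2(CPM + 1) scale (SE 0.16, limma adjusted p = 1.43e-05). Itga2 rose by 1.80 on that scale (SE 0.24, limma adjusted p = 0.0014). Lama1, the embryonic laminin alpha chain, was at 34.2 and 31.2 CPM in Q20 and at 14.0 and 11.9 CPM in WT, a rise of 1.27 (SE 0.25, limma adjusted p = 0.0101). Itgb4 rose from 2.21 and 1.62 CPM to 4.60 and 5.03 CPM, a difference of 1.00 (SE 0.16, limma adjusted p = 0.00407). Itgb3, the platelet and vitronectin receptor chain, rose by 0.86 and its partner Itga2b by 0.71 (limma adjusted p = 0.0112 for both), at levels of no more than 3.94 CPM. Adjusted p for Itgb3 and Itga2b became 0.159 and 0.347 after quantile normalisation. With limma fitted to the 4 libraries of both groups alone, 1 member was called, Itga3. Without Q20 replicate 1 the count was 5.

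Of the 6 members highest in Q20 NPC, Itga3, Itgb3, Itgb4 and Lama1 were also among the 7 whose mESC values all exceeded their NPC values, and Itga2 and Itga2b were not. The sum of the pluripotency markers given above was highest in the same 2 libraries, through Pou5f1 and Nanog. Other listed markers went the other way. Esrrb was at 0.721 and 0.751 CPM in Q20 NPC and reached 7.74 CPM in Q92. Klf4 was at 3.19 and 3.83 CPM in Q20 NPC and reached 18.5 CPM in Q92. In mESC, Pou5f1 was at 279.7 CPM or more and Itga3 had a mean of 102 CPM. The part of pluripotency transcripts in the result was not tested. Itga2 had no library above 1.60 CPM in mESC and 11.7 CPM in Q20 NPC. The summed astrocyte markers were also highest in Q20 NPC, with 1366 and 1215 CPM against 24.0 to 876 CPM in the other 10 libraries. Of the listed astrocyte markers, Gfap, S100b and Slc1a2 had their highest values in other lines.

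The promoters of Itga3 and Itga2, which were both high in Q20 NPC, and that of Itga4, which was low there, are shown because these genes had large and opposite differences between Q20 and the longer alleles. RefSeq windows matched 21 of the 32 members, and the bases upstream of the annotated start in RefSeq and in GENCODE are printed 5′ to 3′ on the gene's strand (GRCm38.p6). Itga3 lies at chr11:95076802-95076964 (minus strand, 163 bases), Itga2 at chr13:114932101-114932350 (minus strand, 250 bases) and Itga4 at chr2:79255176-79255425 (plus strand, 250 bases). Capitals mark the GC box, searched as GGGCGG on both strands.
Itga3: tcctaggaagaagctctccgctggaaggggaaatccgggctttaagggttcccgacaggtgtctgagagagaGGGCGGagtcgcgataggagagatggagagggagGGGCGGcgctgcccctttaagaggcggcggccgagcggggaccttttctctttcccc
Itga2: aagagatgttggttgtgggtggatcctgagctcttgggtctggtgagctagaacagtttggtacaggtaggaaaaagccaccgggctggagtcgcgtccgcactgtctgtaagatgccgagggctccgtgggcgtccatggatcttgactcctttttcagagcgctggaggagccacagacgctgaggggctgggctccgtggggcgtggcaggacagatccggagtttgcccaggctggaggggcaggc
Itga4: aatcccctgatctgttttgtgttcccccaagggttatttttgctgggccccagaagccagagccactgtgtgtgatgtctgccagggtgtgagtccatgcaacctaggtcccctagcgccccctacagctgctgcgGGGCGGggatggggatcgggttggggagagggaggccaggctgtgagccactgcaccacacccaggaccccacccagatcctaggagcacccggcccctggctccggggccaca
The Itga3 window held 2 GC boxes and 18.4% of all 32851 windows of that length held at least 1. The Itga4 window held 1 and that of Itga2 held 0, where 32.7% of all windows of 250 bases held at least 1. The AP-1 site TGACTCA and the CCAAT box, searched on both strands, had no match in these windows; 2.84% and 4.46% of windows of 163 and 250 bases held the first, and 21.9% and 33.8% the second. Itga3 and Itga2 held 12 CpG each, where the median of windows of their length was 3 and 6, and Itga4 held 6 against a median of 6. The windows set beside Itga3 were the 163 bases farthest from each RefSeq start. The Itga3 bases end at its GENCODE start, so they may lie nearer to a start than those windows do.

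Itgb1, Lamb1, Lamb3 and Lamc1 were lower in both Q20 libraries of NPC than in the other 10 libraries, 4 of 26 members against 8.03% of all tested genes. Itgb1 was at 711 and 758 CPM in Q20, at 864 and 1032 CPM in WT, at 1520 and 1642 CPM in KO, at 1357 and 1512 CPM in Q50, at 1037 and 1161 CPM in Q92 and at 1503 and 1498 CPM in Q111. Lamc1, the gamma chain of most laminins, was at 143 and 132 CPM in Q20 and at 246 and 285 CPM in WT, and it fell by 0.94 (SE 0.13, limma adjusted p = 0.00199). Lama5 was at 112 CPM in both Q20 libraries and at 168 and 208 CPM in WT, and it fell by 0.73 (SE 0.17, limma adjusted p = 0.0255). Lama4, an alpha chain of vessel and nerve basement membranes, fell from 21.1 and 31.5 CPM to 7.75 and 6.48 CPM, a log2 change of -1.73 (SE 0.28, limma adjusted p = 0.00372). For Itgb1 the difference from WT was -0.36 (SE 0.13, limma adjusted p = 0.116) and for Lamb1 -0.55 (SE 0.20, limma adjusted p = 0.119).

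The 3 longer alleles were each compared with Q20, and these comparisons share the Q20 libraries. Of 26 members, 11 were called in Q50 (7 higher, 4 lower), 15 in Q92 (6 higher, 9 lower) and 14 in Q111 (5 higher, 9 lower). Among all tested genes 18.8% were called in Q50 (8.05% higher, 10.7% lower), 25.8% in Q92 (9.88% higher, 15.9% lower) and 28.3% in Q111 (12.2% higher, 16.1% lower). After quantile normalisation the members split into 9 higher and 4 lower in Q50, 6 higher and 6 lower in Q92 and 8 higher and 8 lower in Q111. The shares of all tested genes after quantile normalisation are not given here, so this split has no background beside it. The median member changed by 0.20, -0.46 and -0.0086, against medians of -0.0020, 0.060 and 0.028 over all tested genes. The count in Q50 was 6 without Q50 replicate 2 or Q20 replicate 1, that in Q92 was 8 without Q20 replicate 1, and that in Q111 was 7 without Q20 replicate 1 and 8 without any 1 of the other 3 libraries.

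Itgb1 and Lamc1 were called higher than in Q20 in all 3 comparisons. Itgb1 rose by 0.96 in Q50 (limma adjusted p = 0.00139), by 0.58 in Q92 (0.014) and by 1.03 in Q111 (0.000913), with SE 0.13 each. Lamc1 was at 387 and 465 CPM in Q50, at 191 and 186 CPM in Q92 and at 189 and 216 CPM in Q111. Its rise was 1.62 in Q50 (limma adjusted p = 8.98e-05), 0.45 in Q92 (0.0395) and 0.55 in Q111 (0.0183), with SE 0.13 each. Under quantile normalisation the adjusted p of Lamc1 was 0.207 in Q92 and 0.117 in Q111, and that of Itgb1 was 0.0838 in Q92. Itga3, Itga2, Itgb4 and Itgb3 were called lower than in Q20 in all 3. The log2 change of Itga3 was -2.17 in Q50, -2.53 in Q92 and -2.97 in Q111 (SE 0.16 each; limma adjusted p = 4.77e-05, 1.84e-05 and 1.05e-05). That of Itga2 was -2.01, -2.37 and -2.41 (SE 0.24 each, limma adjusted p at most 0.000668). That of Itgb4 was -1.61, -1.25 and -1.10 (SE 0.16 each, limma adjusted p at most 0.00195). Itgb3 fell in the 3 lines from 2.46 and 1.65 CPM to between 0.563 and 1.15 CPM.

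**Figure D3:**
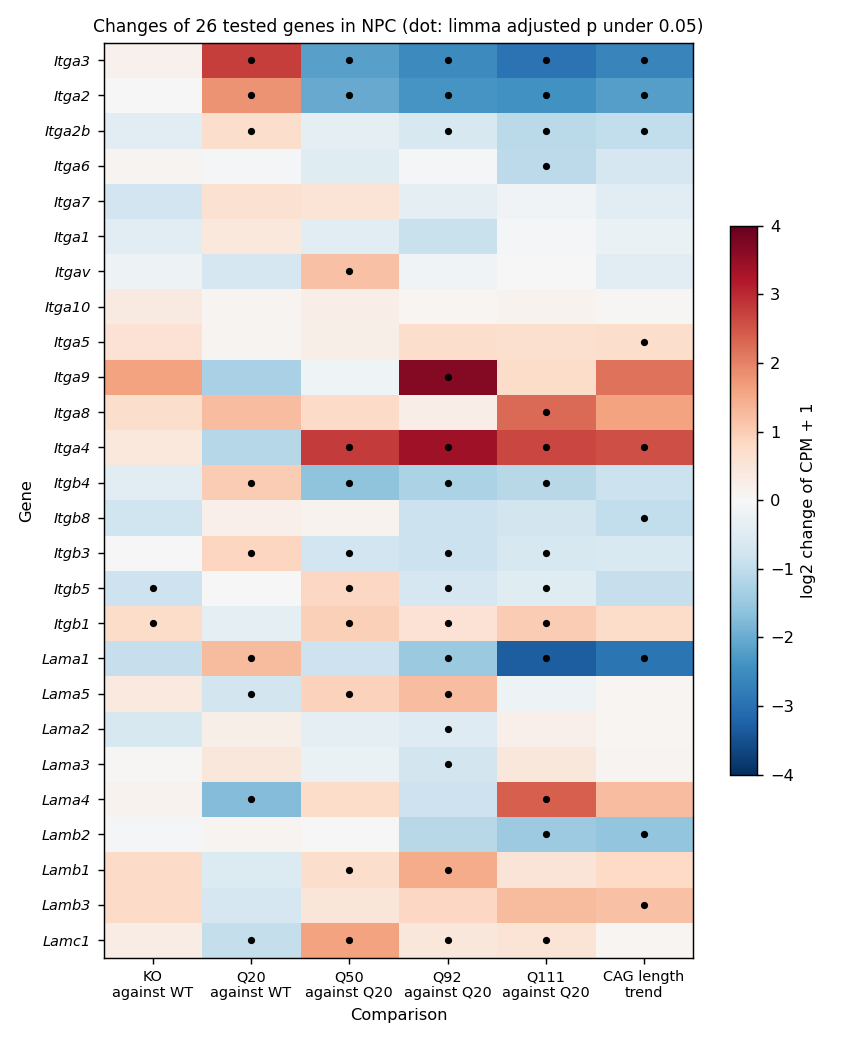
Log2 change of CPM + 1 (colour, red higher and blue lower) of the 26 tested genes (rows) in 5 comparisons of NPC lines and over the CAG lengths (columns); a dot marks limma adjusted p under 0.05. The Q20 column against WT shows Itga3 at 2.75 and Itga2 at 1.80, and the 3 columns against Q20 show both in blue, with Itga4 in red.

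Itga4, the chain that binds fibronectin and the vascular adhesion molecule Vcam1, was higher than in Q20 in each longer line. It was at 3.99 and 4.74 CPM in Q20, at 27.6 and 47.5 CPM in Q50, at 55.9 and 54.2 CPM in Q92 and at 31.9 and 34.0 CPM in Q111. The WT libraries were at 4.55 and 23.9 CPM and the KO libraries at 9.66 and 22.0 CPM, so that the 2 WT libraries spanned from the level of Q20 to near that of Q50. Itga4 rose by 2.80 in Q50, 3.39 in Q92 and 2.67 in Q111 (SE 0.64 each; limma adjusted p = 0.0183, 0.00643 and 0.0182). Reads of the Itga4 exons that Cerkl overlaps on the other strand, 8.04% of the exon bases, could belong to either gene, as strand use is not given. The same holds for 7.66% of the exon bases of Itgb4, 5.9% of those of Itgav and 5.05% of those of Itga8, each overlapped by a gene on the other strand. A gene on the same strand overlaps 33.5% of the exon bases of Itga10, so its level is uncertain too.

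In NPC, Itga4, Itga9 and Lamb1 were higher in both Q92 libraries than in the other 10, 3 of 26 members against 7.96% of all tested genes. Itga9, whose ligands include tenascin C, was at 251 and 306 CPM in Q92, at 21.5 and 20.5 CPM in Q20, at 16.1 and 21.6 CPM in Q50 and at 34.5 and 36.9 CPM in Q111. It was at 25.7 and 108 CPM in WT and at 135 and 202 CPM in KO, within the range of the knock-in lines. The rise of Itga9 over Q20 was 3.66 (SE 0.54, limma adjusted p = 0.00184). Lamb1 was at 323 and 324 CPM in Q92 and at 119 and 112 CPM in Q20, a rise of 1.47 (SE 0.20, limma adjusted p = 0.00115). Lama5 rose with it, from 112 to 258 and 268 CPM, by 1.22 (SE 0.17, limma adjusted p = 0.00145). Lama1 fell by 1.50 (SE 0.25, limma adjusted p = 0.00317) and Itgb5, a partner of Itgav, by 0.66 (SE 0.14, limma adjusted p = 0.0105). Itga2b, Lama2 and Lama3 were also called lower, by 0.52 to 0.73, each at no more than 3.94 CPM. Lama4 was lower in both Q92 libraries than in the other 10, 1 of 26 members against 8.12% of all tested genes. Both shares of members in Q92 lay near those of all genes. The 8 primitive endoderm markers in the NPC table, 4 of them under 1 CPM throughout, summed to 8.73 and 10.6 CPM in Q92. In the other 10 libraries they summed to 79.7 CPM or more. This contrast lay in 1 gene, Pdgfra, at 1.27 and 2.20 CPM in Q92 and at 60.6 CPM or more elsewhere. Cubn, Dab2 and Gata4 had their lowest values in other lines. The part of these markers in the values was not tested.

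In Q50 the partners Itgav and Itgb5 were both highest. Itga7, Itgav, Itgb5 and Lamc1 were higher in both Q50 libraries than elsewhere, 4 of 26 members against 5.68% of all tested genes. Itgav was at 407 and 509 CPM in Q50, at 174 and 231 CPM in Q20 and at 383 and 264 CPM in WT, and it rose over Q20 by 1.18 (SE 0.24, limma adjusted p = 0.0103). Itgb5 was at 167 and 164 CPM in Q50, and between 47.2 and 98.1 CPM in the other 10 libraries, and it rose by 0.83 (SE 0.14, limma adjusted p = 0.00433). Itga7, a laminin receptor of muscle and glia, was at 49.2 and 59.4 CPM in Q50 and at 40.9 and 32.2 CPM in Q20, a difference of 0.56 (SE 0.32, limma adjusted p = 0.275). Lama5 and Lamb1 were called higher as well, by 0.91 and 0.72. Itgb4 was lower in both Q50 libraries than elsewhere, at 0.870 and 0.929 CPM, 1 of 26 members against 4.9% of all tested genes. The summed fibroblast markers were also highest in Q50 NPC, at 1128 and 1278 CPM against 96.5 to 550 CPM in the other 10 libraries. Of the listed markers, Fbln2, S100a4 and Thy1 were higher in other lines. The part of these markers in the values was not tested.

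In NPC, Itga8, Lama2, Lama3 and Lama4 were higher in both Q111 libraries than in the other 10, 4 of 26 against 12.5% of all tested genes. Itga3, Itga6, Lama1, Lama5 and Lamb2 were lower than elsewhere, 5 of 26 against 10.4%. The 7 listed mesoderm and smooth muscle markers in the NPC table included 1 under 1 CPM throughout, Mixl1. Their sum was lowest in Q111, at 1.87 and 2.42 CPM against 4.97 to 41.9 CPM elsewhere. Of these markers, T, Acta2 and Cnn1 had their lowest values in other lines, and Mixl1 had its highest value in Q111, at 0.340 CPM. The part of these markers in the values was not tested. Lama1 was at 2.40 and 2.45 CPM in Q111, and the other lines lay between 5.08 and 34.2 CPM. Against Q20 its log2 change was -3.30 (SE 0.25, limma adjusted p = 5.38e-05). Lama4 was at 41.3 CPM in both Q111 libraries, at 9.75 and 15.6 CPM in Q50 and at 3.19 and 3.86 CPM in Q92, and it rose over Q20 by 2.39 (SE 0.28, limma adjusted p = 0.00052). Lama1 and Lama4 thus changed in opposite directions within the same libraries.

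Itga8, the receptor chain for nephronectin, was at 32.8 and 30.0 CPM in Q111 and at no more than 12.2 CPM elsewhere in NPC, and it rose over Q20 by 2.25 (SE 0.57, limma adjusted p = 0.0222). Lamb2, the beta chain of synaptic and vessel laminins, was at 60.2 and 56.9 CPM in Q111, at 64.9 and 86.9 CPM in Q92, at 156 and 163 CPM in Q50 and at 174 and 151 CPM in Q20. Its difference from Q20 was -1.46 in Q111 (SE 0.40, limma adjusted p = 0.0283) and -1.10 in Q92 (SE 0.40, limma adjusted p = 0.074). The WT libraries of Lamb2 were at 219 and 101 CPM and its KO libraries at 205 and 102 CPM, so that the spread between replicates was large in both. Itga6, the main laminin receptor chain of neural stem cells, was at 101 and 105 CPM in Q111 and at 209 and 221 CPM in Q20, and it fell by 1.05 (limma adjusted p = 0.0146). Itga2b, Itgb3 and Itgb5 were called lower too, with log2 changes of -1.08, -0.65 and -0.48.

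The KO comparison in NPC called 2 of 26 members, 1 higher and 1 lower, where 1.42% of all tested genes were called (0.878% higher, 0.545% lower). Itgb1 was higher in the KO libraries than in all other NPC libraries, 1 of 26 members against 2.54% of all tested genes, at 1520 and 1642 CPM against 864 and 1032 CPM in WT, a rise of 0.74 (SE 0.13, limma adjusted p = 0.0394). Itgb5 fell from 87.0 and 98.1 CPM to 55.6 and 47.2 CPM, by 0.84 (SE 0.14, limma adjusted p = 0.0306). A fit on the 4 WT and KO libraries alone called neither, with limma adjusted p of 0.982 and 0.907. Same-numbered WT and KO libraries deviated together (r = 0.467 across genes, which are not independent replicates), and with replicate number as a block the limma adjusted p was 0.0369 for Itgb1 and 0.0524 for Itgb5, so that 1 member was called. The summed fibroblast markers were lowest in KO NPC, at 96.5 and 113 CPM against 209 CPM or more elsewhere. Fbln2 alone held 65.2 and 88.7 CPM of the KO sums. The listed markers did not move together, as Thy1 was highest in KO, at 12.7 and 9.19 CPM. Col1a1 and Col3a1 were lower in Q92 and Q111 than in KO. The part of these markers in the values was not tested. The count was 1 without KO replicate 1 or WT replicate 1, 0 without KO replicate 2 and 4 without WT replicate 2. Itga2b and Lama2 were lower in both KO libraries than in the other 10, 2 of 26 members against 2.04% of all tested genes, with limma adjusted p of 0.19 and 0.0928 against WT.

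Across the 4 CAG lengths in NPC, the slope of 9 of 26 members passed the test, 3 rising and 6 falling, where 22% of all tested genes passed (12% rising, 10.1% falling). Slopes are given as the log2 change over the 91 repeats from the shortest to the longest allele. Lama1 fell by 2.91 (SE 0.44, limma adjusted p = 0.00379), and its knock-in libraries were in the order of length without overlap between lines. Itga3 fell by 2.66 (SE 0.47, limma adjusted p = 0.00687), Itga2 by 2.21 (SE 0.47, limma adjusted p = 0.0147) and Lamb2 by 1.58 (SE 0.22, limma adjusted p = 0.00277). Itga2b fell by 0.98 and Itgb8 by 0.97 (limma adjusted p = 0.0156 and 0.0495). The slope of Itgb8 passed in 4 of 22 alternatives, those of Itga4 and Itga5 in 9 of 22 each and that of Itga2b in 14 of 21. The rising members were Itga4 with 2.58 (SE 0.77, limma adjusted p = 0.0451), Lamb3, the beta chain of epithelial laminin, with 1.17 (SE 0.22, limma adjusted p = 0.0086), and Itga5, the fibronectin receptor chain, with 0.71 (SE 0.20, limma adjusted p = 0.0398). When each line entered as 1 mean value, 0 members passed, and 6 had an unadjusted p under 0.05. The number of all genes at that level in this fit is not given here. Without the Q20 line, 0 members rose and 6 fell: the slope of Itga4 was then 0.044 (adjusted p = 0.97), and those of Lama1, Itga3 and Lamb2 still passed. The count was 4 without Q20 replicate 1 and 5 without Q20 replicate 2, Q111 replicate 1 or Q111 replicate 2.

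In mESC the same comparisons called 1 member in all. It was Itga6, lower in Q20 (160 and 150 CPM) than in WT (292 and 388 CPM), with a log2 change of -1.11 (SE 0.17, limma adjusted p = 0.0481); 0.323% of all tested genes were called. KO against WT, the other pairs, the CAG length slope and the F test over genotypes called 0 of 29. Of all tested genes, KO against WT called 0.0144%, Q50 and Q92 against Q20 0.00719% each, Q111 and the slope 0%, and the F test 0.201%. Members with an unadjusted limma p under 0.05 numbered 1 in KO against WT. Against Q20 they numbered 5, 3 and 5 in Q50, Q92 and Q111. They numbered 5 for the slope and 8 for the F test, and edgeR called 0 in each of these comparisons. Of all 13916 tested genes, 553 had such a p in KO against WT, and 887, 747 and 374 in Q50, Q92 and Q111 against Q20. The slope had 358 such genes and the F test 1379. The call of Itga6 was lost without any 1 of the 4 libraries (adjusted p from 0.138 to 0.217), with edgeR (0.0693) and with quantile normalisation (0.0535). In the comparisons with no call, the largest differences were those of Itgb7 in KO (-0.82, limma adjusted p = 1.0), Lama1 in Q50 (1.35, limma adjusted p = 0.451), Lama3 in Q92 (-1.83, limma adjusted p = 0.204) and Itga8 in Q111 (-1.37, limma adjusted p = 0.758). In Q20 against WT, Itgb8 differed by 2.42 without a call (limma adjusted p = 0.0723).

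Replicate number moved with many members in mESC. In all 6 genotypes, library 2 was above library 1 for Itga1, Itga2, Itga5, Itga7, Itga9, Itgb7, Lama1, Lama3 and Lamc1, 9 of 29 members against 19.7% of all tested genes. It was below library 1 for Itga2b, Itga4, Itgb1, Itgb5, Lamb1 and Lamb3, 6 of 29 against 21.7%. Itga9 was at 19.6 and 74.6 CPM in WT and at 26.3 and 74.5 CPM in KO. Itga1, a collagen receptor chain, had a mean of 1.49 CPM in the libraries numbered 1 and of 8.13 CPM in those numbered 2. In NPC 0 members did so in either direction, against 2.85% and 1.97% of all tested genes.

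With replicate number as a block in the mESC fit, Q20 against WT called 9 members, 4 higher and 5 lower, where 10.6% of all tested genes were called. Itgb8 was higher by 2.42 (SE 0.44, limma adjusted p = 0.0197 with the block), at 5.25 and 5.64 CPM against 0.330 and 0.0885 CPM. Itga1 was higher by 1.40, Itga8 by 1.01 and Itgb1 by 0.79, and the members called lower had log2 changes of -1.28 (Lama1), -1.19 (Itgb7), -1.11 (Itga6), -0.94 (Itga9) and -0.47 (Lamc1) (limma adjusted p with the block from 0.00762 to 0.0478). Lama1 was at 73.7 and 113 CPM in Q20 and at 191 and 261 CPM in WT. The block also called 3 members higher in Q50 than in Q20 (Lama1 by 1.35, Lamc1 by 0.97 and Itga6 by 0.83, against 0.984% of all tested genes) and 1 lower in Q92, Lama3, with a log2 change of -1.83 (limma adjusted p = 0.0123; 0.46% of all genes). Lama3 was at 12.1 and 13.6 CPM in Q92 and at 20.1 CPM or more in the other 10 libraries. The F test with the block called 9 of 29 members and 8.67% of all genes. KO against WT and Q111 against Q20 called 0 members with the block, with 5 and 8 at an unadjusted p under 0.05 (0.115% and 0.0575% of all genes were called), and the slope 0, with 5.

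Markers of other cells moved with these mESC groups. Primitive endoderm cells secrete Lama1, Lamb1 and Lamc1, and their listed markers summed to 348 and 136 CPM in WT and to 31.4 and 46.8 CPM in Q20 mESC, with none of the 9 under 1 CPM in all libraries. Fibroblast markers summed to 18.8 to 23.4 CPM in the WT and KO libraries and to 74.9 to 135 CPM in the knock-in libraries, with 9 of 10 markers in the table. Thy1, Pdgfrb and Col3a1 overlapped between these groups of libraries, and the other fibroblast markers did not. Thy1 was at 9.66 and 11.3 CPM in WT and at 4.37 to 12.3 CPM in the knock-in libraries. The part of either list in the differences between Q20 and WT was not tested.

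**Figure D4:**
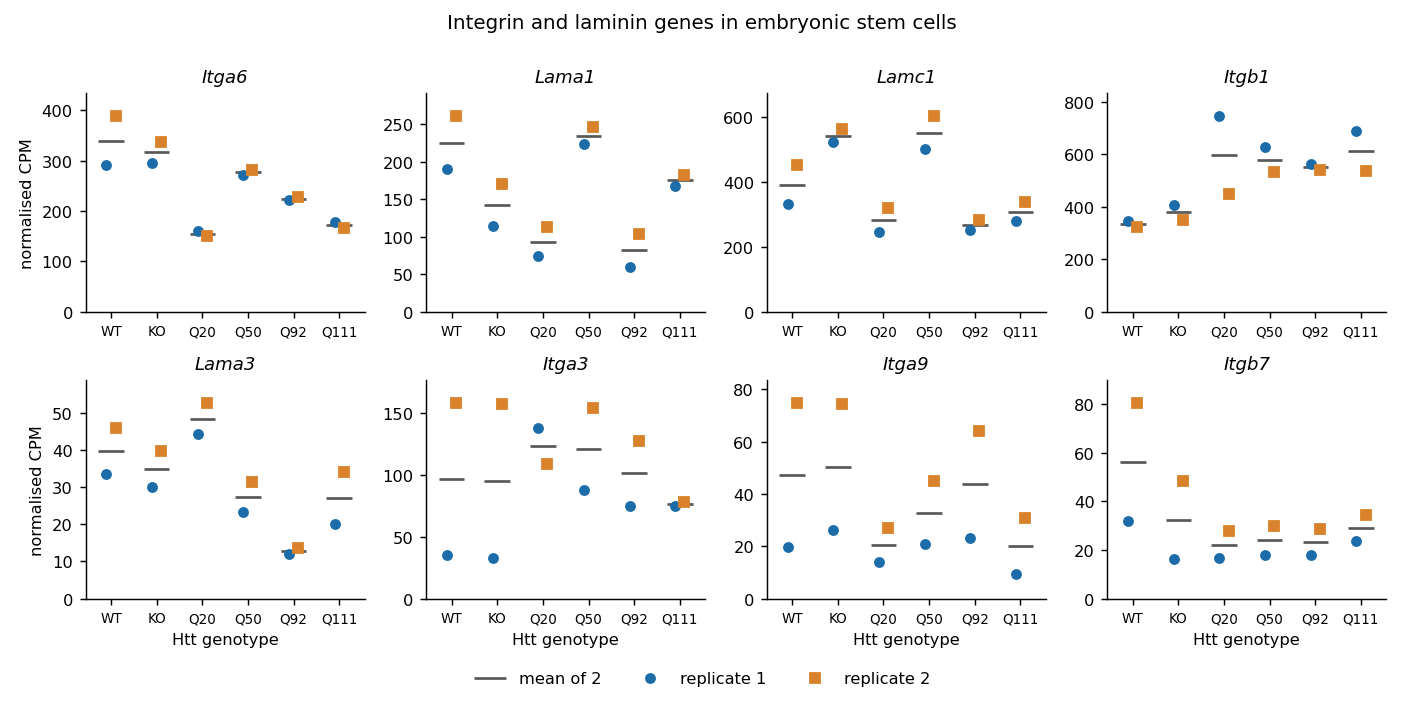
Normalised CPM (y axis, from 0) of 8 genes in the 12 mESC libraries by Htt genotype (x axis); circles and squares are replicate 1 and 2 and the bar is their mean. Itga9 and Itgb7 were higher in replicate 2 in all 6 genotypes, Itga6 was at 160 and 150 CPM in Q20, and Lama3 was lowest in Q92 at 12.1 and 13.6 CPM.

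The slope on CAG length differed between the cell types for 3 of the 25 members tested in both (limma interaction, adjusted p under 0.05), where 4.86% of all 12321 genes did. For Itga8 the slope was 1.60 in NPC (SE 0.58) and -1.51 in mESC (SE 0.28), a difference of 3.11 (SE 0.66, limma adjusted p = 0.0163). For Lama1 it was -2.91 in NPC (SE 0.44) and 0.18 in mESC (SE 0.60), a difference of -3.09 (SE 0.78, limma adjusted p = 0.0365). For Itga2 it was -2.21 in NPC (SE 0.47) and 0.36 in mESC (SE 0.43), a difference of -2.58 (SE 0.67, limma adjusted p = 0.0392), at mESC levels of no more than 1.60 CPM. Itga8 was at 6.11 and 5.53 CPM in Q20 mESC and at 1.13 and 2.28 CPM in Q111 mESC, the reverse of its order in NPC. With replicate number as a block in each cell type these 3 passed, and so did Lamb3. The slope of Lamb3 differed by 1.56 (SE 0.33, limma adjusted p = 0.0138 with the block). The share of all genes with this block is not given here. With 1 mean value per line none of the 3 passed. The count was 1, Itga8, without either Q20 library of mESC or NPC or either Q111 library of NPC, and 5 without NPC Q50 replicate 2.

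**Figure D5:**
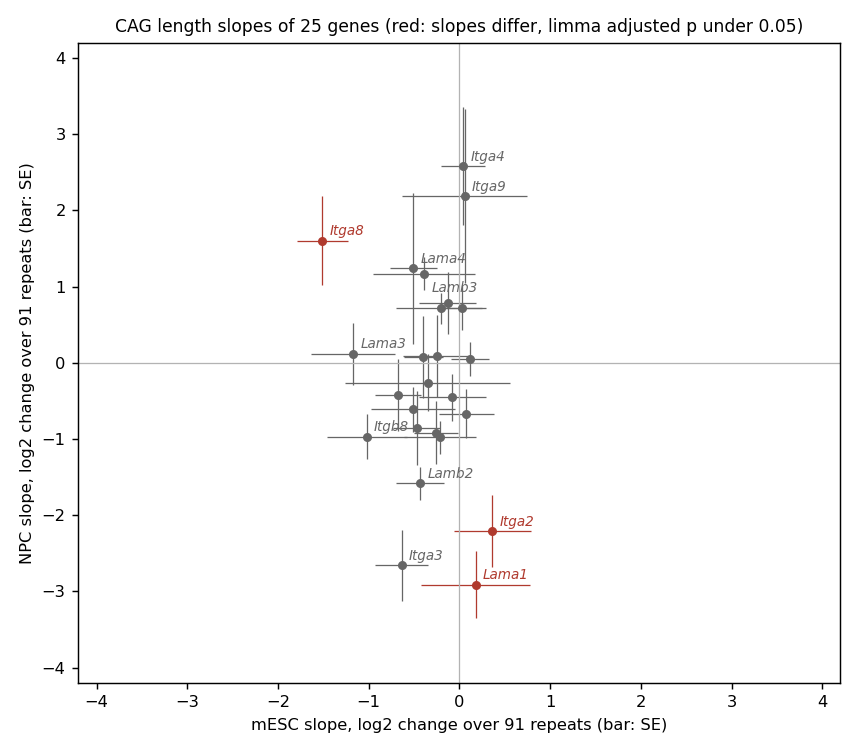
Slope on CAG length of 25 genes in mESC (x axis) and NPC (y axis), as log2 change over 91 repeats with SE bars; red marks genes whose slopes differ between cell types. Itga8 lies at -1.51 and 1.60, and Lama1 and Itga2 lie near 0 on the mESC axis and at -2.91 and -2.21 on the NPC axis.

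Genes that work with these chains were described from 3 lists. Of 30 tested genes that bind integrin tails or carry their signal, 10 were called in Q20 against WT NPC (6 higher, 4 lower), 11 in Q50, 16 in Q92 and 11 in Q111 against Q20, and 23 by the F test over genotypes. Of all tested genes 14.5%, 18.8%, 25.8%, 28.3% and 38% were called in these comparisons. Talin Tln1, which activates integrins, fell by 0.55 in Q20 (SE 0.10, limma adjusted p = 0.00824) and rose in Q50 by 0.46 and in Q92 by 0.70. The parvin gene Parva fell by 0.72 in Q20 and rose in Q50, Q92 and Q111 by 0.74, 0.81 and 0.51. The kinase Ptk2b, a relative of focal adhesion kinase, was at 4.86 and 3.40 CPM in Q20 and at no more than 0.284 CPM in the other 10 NPC libraries. Actn1, an actin crosslinker of adhesion sites, was the only gene of this list called in KO NPC, with a rise of 1.27 (SE 0.15, limma adjusted p = 0.00861). In mESC 1 of 31 was called in Q20 against WT, Zyx, with a rise of 1.72, and 0 in the other comparisons. Those other comparisons had 1 to 8 genes of the list at an unadjusted limma p under 0.05. The range over all 13916 tested genes was 358 to 1379. edgeR calls were not counted for the lists.

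Of 19 tested genes for other basement membrane proteins and integrin ligands, 11 were called in Q20 against WT NPC, 9 higher and 2 lower, where 9.97% of all tested genes were called higher and 4.57% lower. Frem2, a basement membrane protein of developing epithelia, was at 48.7 and 41.1 CPM in Q20 and at no more than 4.18 CPM elsewhere in NPC. Vtn, the vitronectin ligand of Itgav and Itgb3, was at 5.95 and 5.06 CPM in Q20 and between 0.0677 and 2.83 CPM elsewhere. Tnc, the tenascin C ligand of Itga9, was at 646 and 702 CPM in Q20 and between 1522 and 6157 CPM in the other 10 libraries, and it fell by 2.72 against WT (SE 0.32, limma adjusted p = 0.000722). Col4a6, a collagen IV chain, was at 105 and 109 CPM in Q111, where Lama4 was also highest, and at no more than 9.33 CPM in the other lines. Nid1, which links laminin to collagen IV, fell with CAG length by 1.87 (SE 0.45, limma adjusted p = 0.0218), and 5 of 19 fell and 0 rose with length, against 10.1% and 12% of all tested genes. In KO NPC 1 gene of the list was called, Fras1, at 52.7 and 52.3 CPM against 17.7 and 22.2 CPM. In mESC limma called 0 of 15 in any comparison, with 0 to 5 at an unadjusted p under 0.05. It called 0 of 12 in the list of other laminin receptors and linked genes, with 0 or 1 at that level. The range over all 13916 tested genes was 358 to 1716.

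This last list held receptors that bind laminin without an integrin, such as Bcam and Dag1. It also held genes of the dystroglycan complex that are not laminin receptors themselves, such as Dmd and Utrn. Bcam was called in 3 of the pairs in NPC. It was at 4.77 and 4.89 CPM in Q20 and at 2.05 and 2.07 CPM in WT, a rise of 0.93 (SE 0.16, limma adjusted p = 0.00608). Dag1, which encodes dystroglycan, the best studied receptor of the list, was at 120 to 246 CPM over the NPC libraries and was called in none of the comparisons. Cd44 was at 64.5 and 65.6 CPM in Q111 and between 11.9 and 46.0 CPM in the other lines, and it rose over Q20 by 2.24 (SE 0.44, limma adjusted p = 0.00802). Of the 12 tested genes of this list, 1 was called in Q20 against WT, 1 in Q50, 3 in Q92 and 5 in Q111 against Q20. Of all tested genes 14.5%, 18.8%, 25.8% and 28.3% were called in these comparisons.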

How the data were processed

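Per the labels' protocols, libraries of total RNA were read from both ends on a NextSeq 500. STAR, CASAVA 1.8 and the build GRCm38.p6 are named in the submitters' processing notes; the counting tool, its use of strand and the gene filter are not given in the sources used here. The authors deposited a table per cell type of a normalised signal that they named CPM, with column totals from 900342 to 1080734. In all 24 columns 100% of values were whole multiples of 1 read (tolerance 0.01 of a read), which gave the recovered reads. CPM was kept as deposited and tested as log2(CPM + 1) with limma 3.58.1 (R 4.3.3, variance trend, two-sided, means of all 6 genotypes in a fit). Genes that reached 1 CPM in 2 or more libraries were tested, 13916 in mESC and 13206 in NPC, and adjusted over all of them by Benjamini-Hochberg. A gene was called at an adjusted p under 0.05. Fold changes on this scale understate those of low genes. edgeR 4.0.16 on the recovered reads was an alternative, beside other pseudocounts, filters, scalings, left-out libraries and lines, and a replicate block. The scripts were tested on simulated data.

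Same-numbered libraries deviated together in 15 of 15 pairs of mESC genotypes (correlations from 0.25 to 0.547) and in 3 of 15 in NPC (from -0.0495 to 0.467), with 0.1 as the limit. The numbers were therefore taken to pair the libraries in mESC; this comes from the data, as no label says so. CpG counts and motifs came from RefSeq promoter windows, and exon lengths and positions from GENCODE M21. Members and lists were chosen with earlier results of these data known. Named genes followed a rule: called members, up to 6 with the largest rise and up to 6 with the largest fall in a comparison and by smallest p for the slope, the member with the largest difference where none was called, and Htt. Genes named from the lists, and other called members, were chosen after their values were seen. In the pair and F tests the p-values measure the spread between 2 libraries a group, pooled over the 6 genotypes. For the slope and its difference between cell types, the spread also holds the scatter of the lines around a straight line. Intervals of counting were not computed. The values of 1 member are not reported here.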

Additional observations from a re-analysis of the deposited data

Results flagged for a closer look

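For 3 members the effect of CAG length differed between the cell types by a test of the difference itself. The slope of Itga8 was 3.11 higher in NPC than in mESC (log2 change over 91 repeats), with a rise of 1.60 in NPC and a fall of 1.51 in mESC, neither of which passed its own test (limma adjusted p = 0.0815 and 1.0). It stayed past the threshold in 23 of 24 alternatives. The slope of Lama1 differed by -3.09 and passed in 16 of 25. The slope of Itga2 differed by -2.58 and passed in 8 of 24; its mESC levels were under 1 CPM in all but 2 libraries.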

How the results depend on the processing

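Leaving out 1 library at a time gave 0 to 4 called members for KO against WT in NPC, 5 to 13 for Q20 against WT, 6 to 9 for Q50, 8 to 10 for Q92 and 7 to 8 for Q111 against Q20, 4 to 8 for the slope, 16 to 23 for the F test and 1 to 5 for the difference of slopes. In mESC it gave 0 in every comparison. A mean of at least 5 CPM left fewer genes to test and gave 4 for Q20 against WT, 6, 8 and 9 for Q50, Q92 and Q111, 4 for the NPC slope, 13 of 17 for the F test and 1 for the difference of slopes. With 1 mean value per line the NPC slope and the difference of slopes gave 0. Only the libraries of both groups gave 0 for KO and 1 for Q20 against WT in NPC and 0 for Q20 against WT in mESC. No filter gave 1 for KO in NPC. In mESC, Q20 against WT gave 0 with edgeR and 0 with quantile normalisation. The replicate block gave 9, 3 and 1 in mESC for Q20 against WT and for Q50 and Q92 against Q20, and 9 for the F test. In NPC, where 3 of 15 pairs of genotypes deviated together, WT and KO among them, the block gave 1 for KO and 6 for the slope. Among these alternatives, shares of all tested genes are given only for the block in mESC. The other counts of members have no such background beside them.

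Htt changed sign in these settings. Its NPC slope was 0.20 without the Q111 line, and with 1 library left out it ran from -0.15 to 0.037, the latter without Q111 replicate 1. In NPC it was -0.070 for Q92 against Q20 after quantile normalisation, and Q20 against WT ran from -0.18 without WT replicate 1 to 0.18, with -0.0073 without Q20 replicate 1. In mESC, KO ran from -0.78 to 0.22 (without KO replicate 2), and Q50 against Q20 from -0.26 to 0.19 (without Q50 replicate 2), with 0.09 without Q20 replicate 1. The Htt difference between KO and WT NPC passed, with adjusted p from 0.0241 to 0.0499, with median-of-ratios or quantile scaling and without either WT library, and Q111 against Q20 did with quantile normalisation (log2 change -0.40, adjusted p = 0.0451). The cause was not tested. The lines were left out of the slope after seeing the data. Of the 57 called results of members named by the rule, 0 changed direction: of their 790 values under the alternatives, 625 stayed past the threshold, 165 did not and 0 reversed. The filters, the replicate block and the fit on the libraries of both groups leave the log2 change of a pair as it is. They could not have reversed it, and the named results were picked because they were called. Members under 1 CPM in all but 1 library or in all were not tested, and the part of depth in the number of calls was not tested.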
